A study of Mus musculus with 6 samples.

Results

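The genes described here encode the subunits of potassium channels. They were taken as the rows of the deposited high-oxygen expression table whose symbol is Kcn followed by one letter and digits, together with Kcnma1, Kcnmb1 to Kcnmb4, Kcnip1 to Kcnip4 and Kcnab1 to Kcnab3, which gave 92 of 53110 genes. The samples were mouse primary neural stem cells (NSCs) from the embryonic telencephalic cortex, grown as adherent cultures on Matrigel in a medium with bFGF and EGF at 21% oxygen. In 3 samples the cells were wild type (WT), and in 3 they were heterozygous for a Setd5 mutation made with CRISPR-Cas9 (Setd5 +/-). All 6 samples shared the medium, the substrate and the oxygen level, and the comparison asked how the RNA of each gene differed between the genotypes. Libraries were prepared from total RNA and sequenced from both ends of the fragments. Each value is a normalized count, the reads counted on a gene divided by a size factor of the sample.

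Potassium channels let potassium ions leave or enter a cell down their gradient and so set its resting potential and the length of its electrical signals. A channel is built around a ring of pore-forming subunits, to which accessory subunits can bind that change its gating or its transport to the membrane. Voltage-gated (Kv) channels open on depolarization, inward rectifiers and two-pore-domain channels carry current near the resting potential, and calcium-activated channels couple the potential to calcium inside the cell. In astrocytes and radial glia the inward rectifier encoded by Kcnj10 is known for potassium uptake, while Kv and calcium-activated channels are best known from neurons.

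The 3 samples of a genotype did not act as separate cultures. Their column names carried the same index and the same lane, and for the mutant the name of a single clone. When read pairs were compared between 2 samples, chi-square divided by its degrees of freedom was 0.961 to 0.986 in the 6 pairs within a genotype, against 34.85 to 34.98 in the 9 pairs between genotypes. They were therefore counted as parts of 1 library per genotype, n is 1, and no p-value or SD is given. The reads counted on genes came to 30004634 in WT and 21435546 in Setd5 +/-. Intervals are 95% counting intervals, which cover the sampling of reads in these 2 libraries and not the differences between cultures or clones. With 1 library each, the genotype, the clone and the lane cannot be told apart.

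Setd5, the targeted gene, had normalized counts of 2498, 2749 and 2780.1 in WT and 2151, 1989.9 and 2055 in Setd5 +/- (log2 fold change -0.37, 95% counting interval -0.44 to -0.31). The markers of NSCs were well detected, with 10 of 10 past the filter and summed levels of 77914 to 78076 in the WT samples and 62599 to 63464 in the Setd5 +/- samples; 1 (Notch1) was at least 2-fold higher and 1 (Fabp7) lower. Of the astrocyte markers, 3 of 6 were at least 2-fold higher and 2 were at least 2-fold lower, with Gfap at 17.1 in WT and 263 in Setd5 +/- as the largest rise and Slc1a2, which went from 4678 to 1225, as the largest fall. Of the neuronal markers, 3 of 8 were at least 2-fold lower and 0 were higher, among them Dcx, which went from 248 to 26.2. The summed level of the neuronal markers lay between 10401 and 10780.0 in WT and between 12649.7 and 12759 in Setd5 +/-, and most of it was Map2. Of the oligodendrocyte lineage markers, 2 of 7 were at least 2-fold lower and 0 were higher, with summed levels of 12426 to 12606 in WT and 8289 to 8652 in Setd5 +/-, and Sox10 went from 298 to 1.59. Mesenchymal and endothelial markers were near 0, with summed levels of at most 14.3 and 4.14, and the microglial markers, of which 1 of 4 passed the filter and 0 were past 2-fold, summed to at most 119. The pericyte markers summed to between 1432 and 1709, nearly all of it Notch3, the only one of the 4 past the filter, with a log2 fold change of 0.14. The part of these marker differences in the values of the channel genes was not tested. In bulk RNA, fewer cells of a type and less RNA per cell cannot be told apart.

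Of the 92 channel genes, 20 had no read in any sample, 29 had a mean below 10 normalized counts over the 6 samples, and 43 passed this filter and were compared. The log2 fold change was computed on the scale of log2(mean normalized count + 1), so it understates the change of genes with low counts. Folds written as plain ratios are of the means without the added 1. They can therefore exceed the log2 fold change given beside them. A change of at least 2-fold on the log2 scale with the added 1 was counted as a call. The mean was at least 10 in both libraries for 37 of the 43 genes, in WT alone for 4 and in Setd5 +/- alone for 2. Genes that passed through 1 library are bound to differ more. Those of WT alone were Kcnn4, Kcnip2, Kcnv1 and Kcnh7, and all but Kcnh7 were called lower. Those of Setd5 +/- alone were Kcnj9 and Kcnj4, both called higher. Of the 43 genes, 14 (32.6%) were at least 2-fold higher in Setd5 +/- NSCs, against 10.3% of the 16266 genes of the whole table that passed the same filter. A further 11 (25.6%) were at least 2-fold lower, against 6.14% of all genes tested. The counts of calls in single families and gene lists are to be set beside these shares over all genes. The median log2 fold change of the 43 genes was 0.12 and that of all genes tested was -0.02, so the channel genes moved in both directions, with a median absolute log2 fold change of 1.08 against 0.40 over all genes tested.

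Calls are more frequent among genes of low level in the whole table, so the same counts were also read within classes of mean level. In the class from 10 to 100 normalized counts, 10 of 26 channel genes were at least 2-fold higher and 7 were lower, against 15.3% and 10.0% of the 5615 genes tested in that class. Between 100 and 1000 normalized counts the counts were 3 and 1 of 12, against 7.26% and 3.92% of 8851 genes. From 1000 normalized counts upwards, 1 of 5 channel genes was higher and 3 were lower, against 9.17% and 4.94% of 1800 genes.

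**Figure D1:**
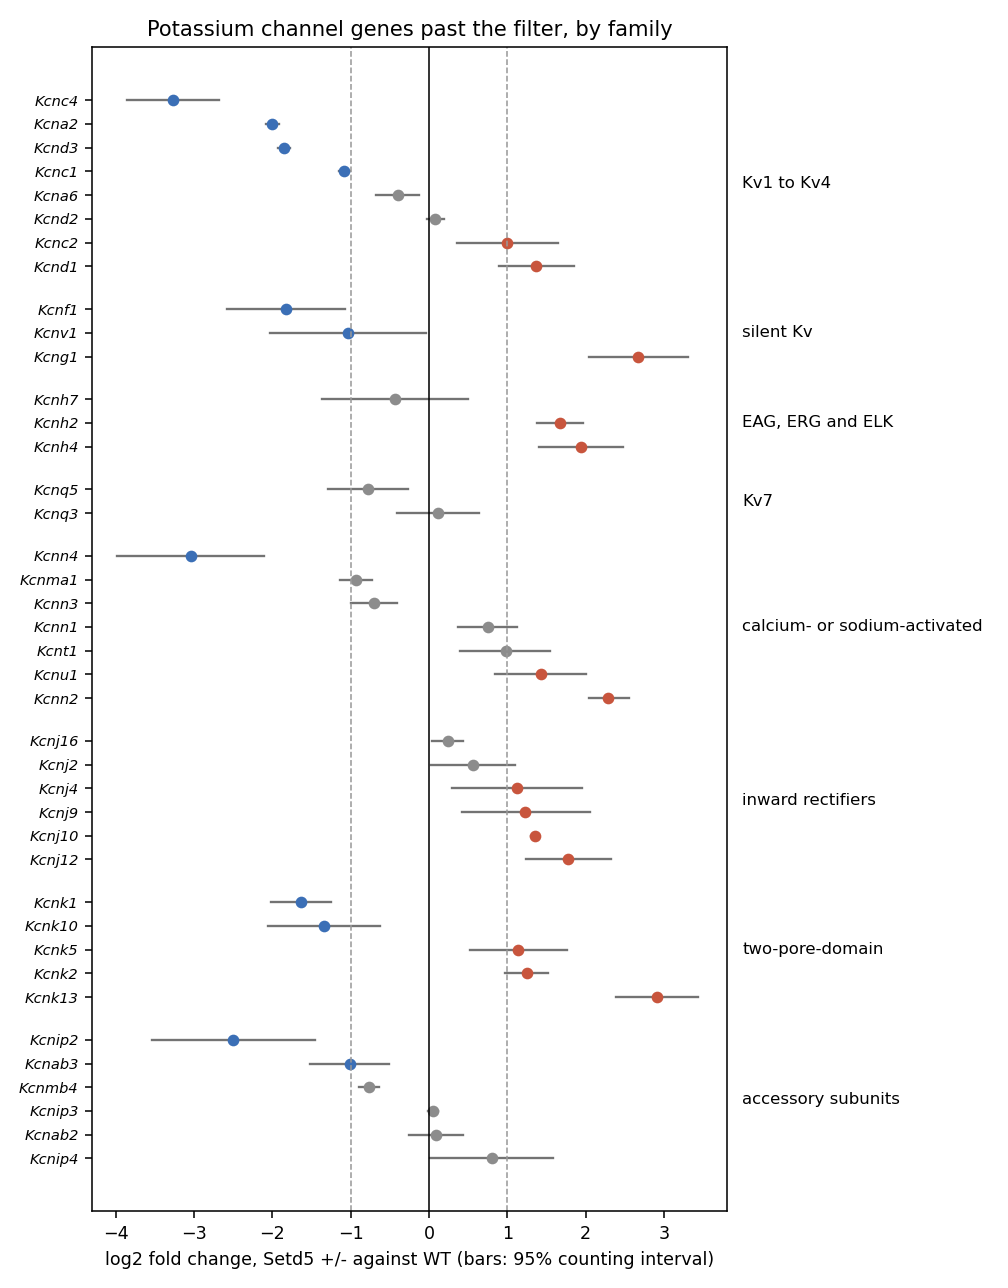
Log2 fold change of 40 of the 43 channel genes that passed the filter (horizontal axis, Setd5 +/- against WT) by family, with 95% counting intervals as bars, 1 library per genotype, red points for genes at least 2-fold higher, blue for at least 2-fold lower and grey for the rest; dashed lines mark 2-fold. All 6 inward rectifiers lie to the right of 0, from 0.24 to 1.78, and the Kv1 to Kv4 genes reach from -3.27 to 1.37.

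Levels between genes were compared per kb of exon, with the exon length of each gene taken from its GENCODE models. In WT NSCs the highest level belonged to Kcnip3, which encodes a calcium-binding partner of Kv4 channels also known as calsenilin or DREAM, at 764 normalized counts per kb. Kcnj10 followed with 542, Kcnd3 with 439, Kcnc1 with 360.0 and Kcna2 with 335. In Setd5 +/- NSCs Kcnj10 came first with 1379 per kb, ahead of Kcnip3 with 789.5 and Kcnd2 with 176, while Kcnd3 was at 121 and Kcna2 at 83.9. Kcnj10 made up 15.9% of the summed level per kb of the 92 genes in WT (95% counting interval 15.5 to 16.2) and 39.2% in Setd5 +/- (38.6 to 39.9). Kcnip3 held 22.4% (21.8 to 22.9) and 22.5% (21.9 to 23.1), shares whose intervals overlap. Neighbours in the order were at times close. In Setd5 +/- the levels of Kcnd2, Kcnc1 and Kcnmb4, at 176, 170.3 and 169 per kb, gave shares of 5.02% (4.74 to 5.30), 4.85% (4.64 to 5.05) and 4.81% (4.47 to 5.14) with overlapping intervals.

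**Figure D2:**
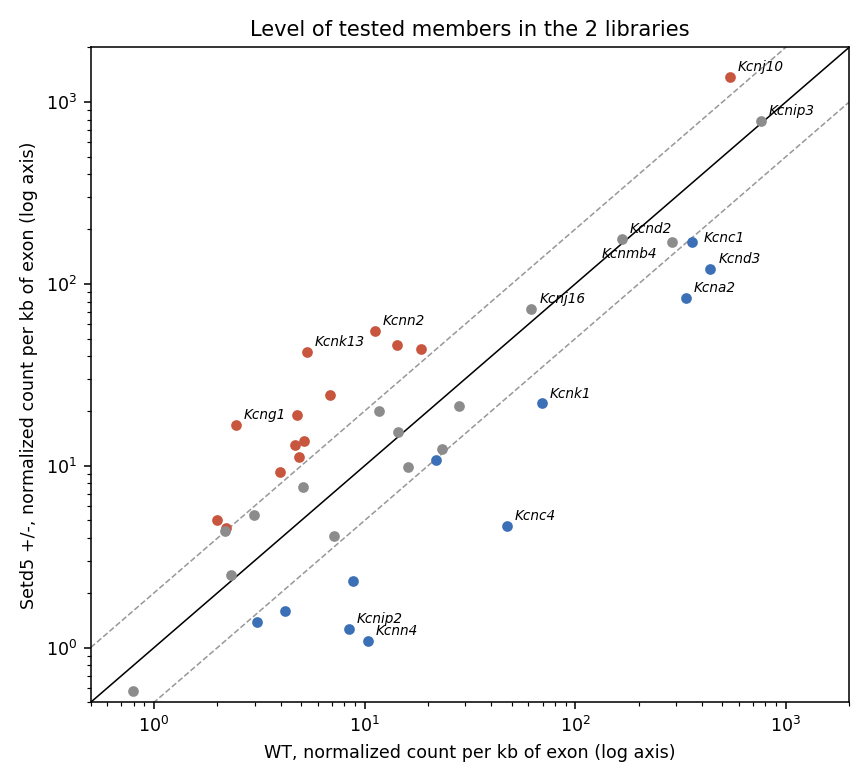
Level of 40 channel genes that passed the filter in the WT library (horizontal log axis) and in the Setd5 +/- library (vertical log axis), in normalized counts per kb of exon; the solid line marks equal levels, dashed lines 2-fold, and colours are red for at least 2-fold higher, blue for at least 2-fold lower and grey for the rest. Kcnj10 and Kcnip3 lie at the top, at 1379 and 789.5 in Setd5 +/-, and Kcnd3, Kcna2 and Kcnc4 lie below the lower dashed line.

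The sequence before the start is shown for 4 genes that stand for the extremes of these data, namely the gene of highest mean that rose (Kcnj10), the gene of highest mean that fell (Kcnc1), the largest rise (Kcnk13) and the largest fall (Kcnn4). They were chosen among the 14 genes past 2-fold whose 250 bases before the RefSeq start touch no annotated exon. Each is written 5' to 3' on the strand of the gene from the RefSeq promoters of GRCm38.p6, with every CG in capitals.
Kcnj10 (chr1:172340960-172341209, + strand): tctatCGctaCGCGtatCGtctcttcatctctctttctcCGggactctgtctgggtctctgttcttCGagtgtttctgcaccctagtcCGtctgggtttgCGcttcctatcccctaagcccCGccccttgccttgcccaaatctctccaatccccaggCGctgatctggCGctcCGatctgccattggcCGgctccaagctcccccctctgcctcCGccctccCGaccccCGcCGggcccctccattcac
Kcnc1 (chr7:46396218-46396467, + strand): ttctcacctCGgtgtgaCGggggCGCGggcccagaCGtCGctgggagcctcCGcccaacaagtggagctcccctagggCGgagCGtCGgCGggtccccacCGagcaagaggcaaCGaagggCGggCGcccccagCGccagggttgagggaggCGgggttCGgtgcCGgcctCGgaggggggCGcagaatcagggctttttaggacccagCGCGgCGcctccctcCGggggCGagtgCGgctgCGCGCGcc
Kcnk13 (chr12:99964249-99964498, + strand): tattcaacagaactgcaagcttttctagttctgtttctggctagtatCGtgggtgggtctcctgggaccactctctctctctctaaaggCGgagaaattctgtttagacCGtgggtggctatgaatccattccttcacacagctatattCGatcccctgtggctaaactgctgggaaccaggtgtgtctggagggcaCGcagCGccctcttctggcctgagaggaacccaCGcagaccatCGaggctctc
Kcnn4 (chr7:24370013-24370262, + strand): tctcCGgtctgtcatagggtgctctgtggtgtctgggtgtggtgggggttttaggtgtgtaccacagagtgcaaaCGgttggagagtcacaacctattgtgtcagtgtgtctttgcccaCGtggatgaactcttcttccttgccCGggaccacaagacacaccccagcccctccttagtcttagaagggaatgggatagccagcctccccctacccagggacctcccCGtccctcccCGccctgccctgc
The stretch before Kcnc1 held 30 CG and the one before Kcnj10 held 17, while those before Kcnk13 and Kcnn4 held 8 and 6. CG is its own reverse complement, so both strands hold the same count. Over 300 bases (250 before to 50 after the start), 15 of the 32 tested channel genes with a RefSeq promoter (46.9%) held at least 20 CG, against 60.2% of the promoters of all tested genes and 28.8% of all promoters in the table. Of the 13 channel genes with a promoter entry and no read in any sample, 2 (15.4%) did so. The median level was 31.3 normalized counts per kb in the 15 genes with at least 20 CG and 12.9 in the 17 with fewer. Of the former 5 were at least 2-fold higher and 3 lower, and of the latter 5 were higher and 6 lower.

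The pore-forming subunits of the Kv1 to Kv4 channels, which carry delayed and transient voltage-gated currents, included the 3 lower channel genes whose mean exceeded 1000 normalized counts. Of the 17 genes 10 passed the filter, of which 4 were at least 2-fold lower, 2 were at least 2-fold higher and 4 were within 2-fold. Their summed level was 13257 normalized counts in WT and 5376 in Setd5 +/-, a ratio of 0.406. Kcnd3 encodes the Kv4.3 subunit of fast-inactivating channels and lies at chr3:105452330-105674002 (mm10). Its 3 WT values were 4244, 4282 and 4113 normalized counts and its 3 Setd5 +/- values 1120.3, 1180.1 and 1192, 3.62-fold lower (log2 fold change -1.85, 95% counting interval -1.93 to -1.78). Kcna2, which encodes the Kv1.2 subunit of low-threshold channels (chr3:107101146-107115005), had 4077, 4006 and 3876 in WT and 939, 1079 and 978 in Setd5 +/- (-2.00, -2.08 to -1.91). Every WT sample of both genes lay above every Setd5 +/- sample. The same lack of overlap between the genotypes held for all 25 channel genes past 2-fold. The samples of a genotype are parts of the same library, so this separation does not show agreement between cultures.

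The Kv3 subunits form channels that open at high voltage and close fast, as fast-spiking neurons use them. Kcnc1 (Kv3.1, chr7:46396497-46438704) had 3446, 3361 and 3408 normalized counts in WT and 1560.1, 1587 and 1683 in Setd5 +/-, 2.11-fold lower (log2 fold change -1.08, -1.15 to -1.01). Kcnc4 (Kv3.4, chr3:107438303-107459552) went from 186, 163 and 172 to 19.1, 11.9 and 20.3, which was the largest fall of all channel genes tested (10.2-fold, log2 fold change -3.27, -3.86 to -2.68). Kcnc2 was low in both libraries, with 18.2, 12.4 and 16.6 in WT and 19.1, 40.5 and 38.1 in Setd5 +/- (1.00, 0.36 to 1.65), which put it just past the 2-fold limit, and inside it when samples were scaled to total reads or to the upper quartile. Kcnc4 held 10.4% of the level per kb of the Kv3 genes in WT (9.35 to 11.4) and 1.97% in Setd5 +/- (1.16 to 2.78), and Kcnc1 held 79.0% (77.8 to 80.2) and 72.1% (70.1 to 74.0).

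The other Kv4 genes differed from Kcnd3. Kcnd2, which encodes Kv4.2, had 875, 925 and 779 normalized counts in WT and 863, 942 and 918 in Setd5 +/-, samples that overlap (log2 fold change 0.08, -0.03 to 0.19). Kcnd1 (Kv4.1) went from 23.2, 35.6 and 23.2 to 75.1, 81.0 and 60.8 (1.37, 0.89 to 1.85). Kcnd3 therefore held 71.9% of the Kv4 level per kb in WT (70.8 to 72.9) and 39.0% in Setd5 +/- (37.2 to 40.8), and Kcnd2 went from 27.3% (26.2 to 28.4) to 56.6% (54.7 to 58.5). Kcna6 (-0.40, -0.67 to -0.13) shares 39.6% of its exon bases with an antisense gene. The counting is not stated to have used strand, so reads of a gene and its antisense partner cannot be told apart.

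**Figure D3:**
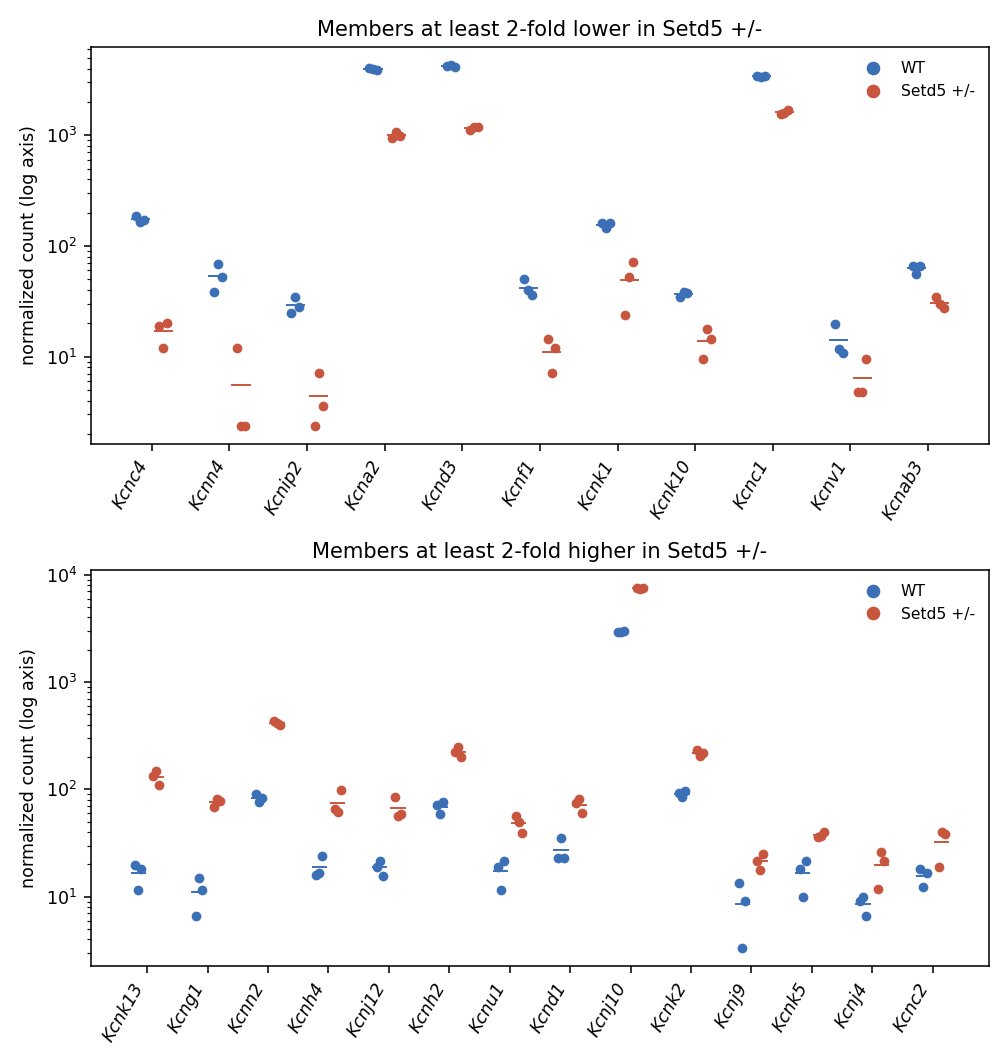
Normalized counts (vertical log axis) of the 25 channel genes past 2-fold, the 11 lower ones above and the 14 higher ones below, with 1 point for each of the 3 WT samples (blue) and 3 Setd5 +/- samples (red) and a line at their mean; the 3 points of a genotype are parts of 1 library. Kcnd3, Kcna2 and Kcnc1 are the lower genes of highest level, and Kcnj10 lies above all the other higher genes.

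On chromosome 3, Kcnd3, Kcna3, Kcna2, Kcna10 and Kcnc4 lie within 2.01 Mb, at chr3:105452330-107459552. Kcna3 stayed under the filter, at 6.63, 3.31 and 13.3 normalized counts in WT with no read in Setd5 +/-, at least 3.24-fold lower against a floor of 3 read pairs over the library. It is named here after its values were seen. Kcna10 had 2 reads or fewer in each library. The other genes of the interval did not all move the same way. Of 22 tested genes there that are no channel genes, 6 were at least 2-fold lower, 0 were at least 2-fold higher and 16 were within 2-fold, with a median log2 fold change of -0.52, while the 836 tested genes of the rest of chromosome 3 had a median of -0.01. The lower ones included Fam212b, the gene of highest mean in the interval, which went from 6073 to 992 (log2 fold change -2.61, -2.697 to -2.53). Also lower was AI504432, which lies 62 kb before Kcna2 and had a mean of 45.3 in WT and no read in Setd5 +/-. Prok1 went from 62.7 to 6.35. Among the higher ones, Cept1 went from 239.6 to 364 and Rbm15, between Kcna2 and Kcnc4, from 169.5 to 225. Kcnd3os, an antisense gene that shares 1.7% of the exon bases of Kcnd3, went from 113 to 18.7.

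**Figure D4:**
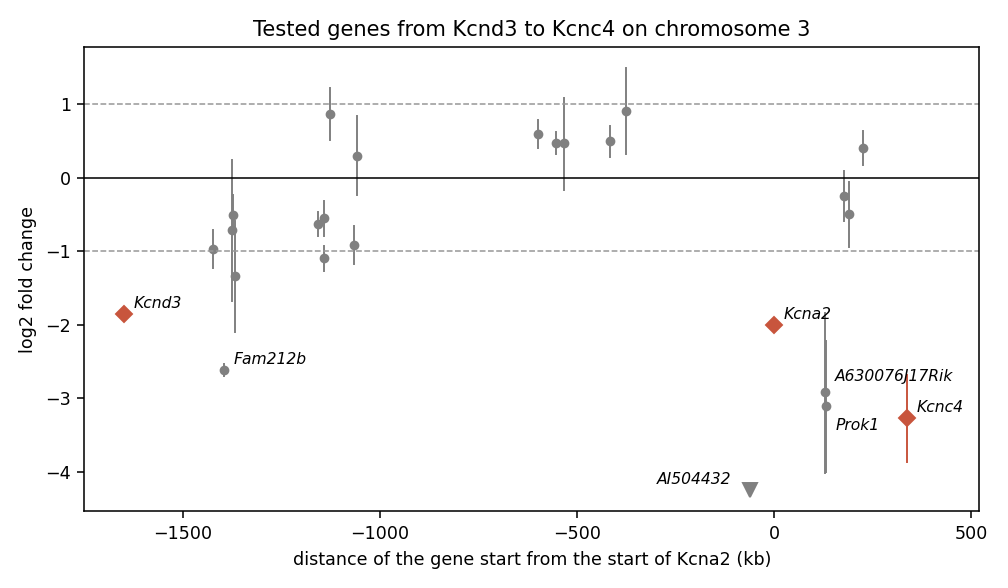
Log2 fold change (vertical axis, Setd5 +/- against WT, bars: 95% counting interval) of the 25 tested genes of the interval from Kcnd3 to Kcnc4 by the distance of their start from that of Kcna2 in kb (horizontal axis), with red diamonds for channel genes and grey for others; dashed lines mark 2-fold, and the triangle of AI504432 is a bound against the floor, at -4.25. The 3 channel genes lie at or below -1.85, and 8 of the 22 other genes lie above 0.

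The silent Kv subunits do not form channels alone but join other Kv subunits. Of 10 genes 3 passed the filter, of which 1 was higher and 2 were lower. Kcng1 (Kv6.1) went from 6.63, 14.9 and 11.6 normalized counts in WT to 69.1, 81.0 and 77.4 in Setd5 +/-, 6.87-fold higher (log2 fold change 2.67, 2.04 to 3.31). Kcnf1 (Kv5.1) went the other way, from 49.8, 39.7 and 36.4 to 14.3, 7.15 and 11.9 (-1.83, -2.58 to -1.07). Kcnv1 (Kv8.1) was at 19.9, 11.6 and 10.8 in WT and 4.77, 4.76 and 9.53 in Setd5 +/- (-1.04, -2.03 to -0.04). This fall rests on 51 and 16 reads. Kcnv1 passed through the WT library alone, so the filter itself favoured a fall in it.

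Of the 8 EAG, ERG and ELK genes 3 passed the filter, and 2 of them were at least 2-fold higher. Kcnh2 encodes the ERG channel that repolarizes the heart muscle and also occurs in neural cells. Its values were 71.3, 59.6 and 77.0 normalized counts in WT and 222, 249 and 199 in Setd5 +/-, 3.22-fold higher (log2 fold change 1.67, 1.38 to 1.97). Kcnh4, an ELK channel gene, went from 15.8, 16.5 and 24.0 to 65.6, 61.9 and 97.7 (1.94, 1.41 to 2.48). Kcnh7, another ERG gene, was barely past the filter with a mean of 12.1 in WT and 8.74 in Setd5 +/-, and its interval held 0 (-0.43, -1.37 to 0.50).

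The Kv7 genes encode slow channels that carry the M current of neurons. Of 5 genes 3 passed the filter and none was past 2-fold. The log2 fold change was -0.78 for Kcnq5 (-1.29 to -0.27) and 0.12 for Kcnq3 (-0.41 to 0.64). The summed level of the family was 128 normalized counts in WT and 127 in Setd5 +/-.

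Among the calcium- or sodium-activated channels, 7 of 8 genes passed the filter, of which 2 were at least 2-fold higher, 1 was lower and 4 were within 2-fold. The small-conductance (SK) and intermediate-conductance (IK) genes moved apart. Kcnn2 (SK2) went from 91.2, 76.1 and 83.6 normalized counts in WT to 434, 413 and 394 in Setd5 +/-, 4.95-fold higher (log2 fold change 2.29, 2.04 to 2.55). Its antisense neighbour A330093E20Rik, which shares 3.8% of its exon bases, went from 16.3 to 80.2. Kcnn4 (IK) went from 38.1, 68.7 and 52.2 to 11.9, 2.38 and 2.38, 9.53-fold lower (-3.04, -3.98 to -2.10). Its level in Setd5 +/- rests on 14 reads. Kcnn4 passed through the WT library alone, so the filter itself favoured a fall in it. Kcnn3 (SK3) was also lower (-0.70, -0.99 to -0.41) and Kcnn1 (SK1) higher (0.75, 0.37 to 1.13), both within 2-fold. Kcnn2 thus held 22.7% of the level per kb of the 4 genes in WT (19.5 to 25.9) and 64.3% in Setd5 +/- (60.7 to 67.9), Kcnn3 went from 32.5% (29.1 to 35.9) to 11.4% (9.48 to 13.3), and Kcnn4 from 21.0% (17.4 to 24.6) to 1.26% (0.347 to 2.18).

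Kcnma1 encodes the pore of the large-conductance BK channel, which opens on both voltage and calcium. It had 423, 405 and 365 normalized counts in WT and 219, 218 and 189 in Setd5 +/- (log2 fold change -0.93, -1.13 to -0.73), just inside the 2-fold limit. Kcnu1, a related gene best known from sperm, went from 19.1, 11.6 and 21.5 to 56.02, 50.02 and 39.3 (1.43, 0.84 to 2.01). The sodium-activated channel gene Kcnt1 had a mean of 20.7 in WT and 41.7 in Setd5 +/-, also just inside the limit (0.98, 0.40 to 1.55).

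The inward rectifiers were the family in which each tested gene was higher in Setd5 +/-. Of 15 genes 6 passed the filter, 4 were at least 2-fold higher, 0 were lower, and the counting interval lay above 0 in all 6. These intervals cover read sampling only, and over the 43 channel genes tested they lay above 0 in 21 and below 0 in 16. Over all genes tested, 10.3% were at least 2-fold higher. Kcnj9 and Kcnj4, 2 of the 4, passed through the Setd5 +/- library alone, so the filter itself favoured a rise in them. Another 6 genes with reads stayed under the filter and are not in these counts. The summed level of the 15 genes was 3255 normalized counts in WT and 7907 in Setd5 +/-, a ratio of 2.43, and most of this was Kcnj10. Kcnj10 encodes Kir4.1, the main inward rectifier of astrocytes, and lies at chr1:172341210-172374085. Its 3 WT values were 2913, 2901 and 2975 normalized counts and its 3 Setd5 +/- values 7485, 7371 and 7507, 2.54-fold higher (log2 fold change 1.35, 1.299 to 1.395). Kcnj16, whose product Kir5.1 joins Kir4.1 in mixed channels, rose far less, from 260.4, 224 and 248 to 265, 273 and 328 (0.24, 0.04 to 0.44). Kcnj10 held 86.1% of the family's level per kb in WT (85.1 to 87.2) and 91.7% in Setd5 +/- (91.0 to 92.4), and Kcnj16 held 9.86% (9.01 to 10.7) and 4.87% (4.39 to 5.35).

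The other inward rectifiers were low. Kcnj12 (Kir2.2) went from 19.1, 21.5 and 15.7 normalized counts to 85.8, 56.0 and 59.6 (log2 fold change 1.78, 1.24 to 2.33). Kcnj9, which encodes a G protein-gated subunit, went from 13.3, 3.31 and 9.11 to 21.5, 17.9 and 25.02 (1.23, 0.42 to 2.05), and Kcnj4 (Kir2.3) from 9.12, 9.93 and 6.63 to 11.9, 26.2 and 21.4 (1.13, 0.30 to 1.95). These last 2 genes had a WT mean below 10 and passed the filter through the Setd5 +/- library. Kcnj2 (Kir2.1) stayed within 2-fold, with means of 27.6 and 41.3 (0.56). Kcnj11, the pore of the ATP-sensitive channel, was under the filter with means of 9.94 and 8.74, and is named here after its values were seen.

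Kcnj9 and Kcnj10 are neighbours on chromosome 1, on which genes were higher as a whole. The 1044 tested genes of this chromosome had a median log2 fold change of 0.53, whereas the medians of the other chromosomes that carry tested channel genes lay between -0.15 and 0.02. Of the 4 tested channel genes there, 3 were at least 2-fold higher. After the median of the chromosome was subtracted, the log2 fold change was 0.82 for Kcnj10, 0.70 for Kcnj9, 0.72 for Kcnk2 and -1.31 for Kcnq5, so that the first 3 were within 2-fold of the median gene of the chromosome and Kcnq5 was not. The part of the chromosome-wide shift in these values was not tested.

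The two-pore-domain channels carry the background (leak) current. Of 14 genes 5 passed the filter and all 5 were past 2-fold, 3 of them higher and 2 lower. Over all genes tested, 10.3% were at least 2-fold higher and 6.14% lower. The counting intervals of Kcnk2, Kcnk5 and Kcnk10 held the 2-fold limit. Kcnk13 (THIK-1) had the largest rise of all channel genes tested, from 19.9, 11.6 and 18.2 normalized counts in WT to 133, 150.0 and 111 in Setd5 +/-, 7.93-fold (log2 fold change 2.91, 2.39 to 3.44). This channel is best known from microglia. The 4 microglial markers summed to between 78.6 and 119 in the WT samples and between 48.9 and 70.3 in the Setd5 +/- samples, nearly all of it Csf1r, with means of 98.02 and 53.6. Aif1 went the other way, with means of 0.827 (3 reads) and 4.37 (11 reads), P2ry12 had 4 reads in WT and 0 in Setd5 +/-, and Cx3cr1 had no read in any sample. The part of these markers in the value of Kcnk13 was not tested. Kcnk2 (TREK-1), a channel opened by stretch and lipids, went from 92.9, 84.4 and 96.9 to 231, 204 and 219 (1.25, 0.97 to 1.52), and an antisense gene shares 12.2% of its exon bases. Kcnk5 (TASK-2) went from 18.2, 9.93 and 21.5 to 35.8, 36.9 and 40.5 (1.14, 0.52 to 1.76).

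Kcnk1 (TWIK-1), which was the leading two-pore-domain gene in WT, was among those that fell. It went from 160.0, 144 and 161 normalized counts to 23.8, 52.4 and 71.5 (log2 fold change -1.63, -2.02 to -1.25), with an antisense gene over 8.0% of its exon bases that itself went from 22.9 to 7.94. Kcnk10 (TREK-2) went from 34.8, 38.1 and 37.3 to 9.53, 17.9 and 14.3 (-1.34, -2.05 to -0.63). The make-up of the family turned over as a result. Kcnk1 held 66.2% of its level per kb in WT (62.6 to 69.9) and 17.7% in Setd5 +/- (13.9 to 21.5), while Kcnk2 went from 17.7% (15.0 to 20.3) to 35.4% (31.7 to 39.2) and Kcnk13 from 5.09% (3.33 to 6.84) to 33.9% (29.9 to 38.0). The family's summed level differed less than its members, at 326 normalized counts in WT against 464 in Setd5 +/-.

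**Figure D5:**
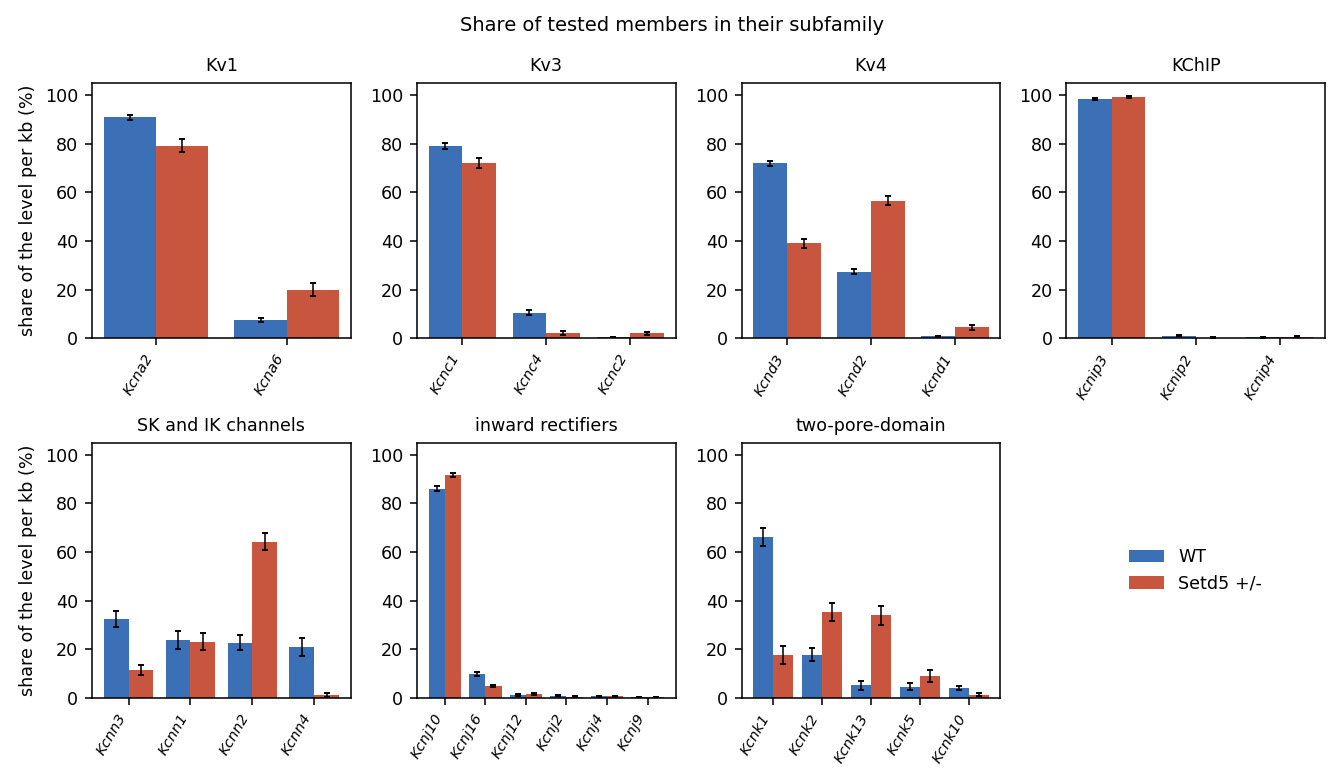
Share of tested genes in the level per kb of exon of their subfamily (vertical axis, percent) in the WT library (blue) and the Setd5 +/- library (red), with 95% counting intervals as error bars; the totals also hold genes that are not drawn. Kcnd2 exceeds Kcnd3 only in Setd5 +/- (56.6% against 39.0%), Kcnn2 reaches 64.3% there, and Kcnk1 goes from 66.2% to 17.7%.

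Accessory subunits bind the pore subunits and tune their gating, assembly or transport. Of 15 genes 6 passed the filter, 0 were at least 2-fold higher and 2 were lower. Kcnip3, the most abundant one, had 2697, 2728 and 2699 normalized counts in WT and 2946, 2775 and 2678 in Setd5 +/-, samples that overlap (log2 fold change 0.05, -0.01 to 0.11). Kcnip2, another KChIP partner of Kv4 channels, went from 24.9, 34.7 and 28.2 to 2.38, 7.15 and 3.57 (-2.50, -3.53 to -1.46). It had 11 reads left in Setd5 +/- and passed through the WT library alone, so the filter itself favoured a fall in it. Kcnip1 was under the filter with 11.6, 7.45 and 10.8 in WT and no read in Setd5 +/-, at least 4.17-fold lower against the floor, and is named after its values were seen. Kcnip4 was low and its samples overlapped (0.80, 0.01 to 1.59).

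Kcnmb4, the neuronal accessory subunit of the BK channel, had 1009, 942 and 911 normalized counts in WT and 582, 548 and 554 in Setd5 +/- (log2 fold change -0.76, -0.89 to -0.64), lower in the same direction as Kcnma1. Its 2 antisense genes, which cover 10.7% and 20.8% of its exon bases, went from 425 to 239 and from 383 to 228. Kcnab3, a cytoplasmic beta subunit of Kv1 channels, went from 66.3, 56.3 and 65.4 to 34.6, 29.8 and 27.4 (-1.01, -1.52 to -0.51), at the 2-fold limit. Kcnab2 was level (0.09, -0.26 to 0.44). Kcnab1 was under the filter but reached a mean of 11.9 in Setd5 +/-, against 4.69 in WT.

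The log2 fold changes closest to the 2-fold limit were those of Kcnc2 (1.00), Kcnab3 (-1.01), Kcnv1 (-1.04) and Kcnc1 (-1.08), just past it, and of Kcnt1 (0.98) and Kcnma1 (-0.93), just short of it. Other than for Kcnc1, the counting interval of each of these genes held the limit. Among the other genes past 2-fold, the intervals of Kcnj4, Kcnj9, Kcnk5, Kcnu1, Kcnd1, Kcnk2 and Kcnk10 held it as well.

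The pumps and cotransporters that carry potassium across the membrane were described in the same way. Of 14 genes 11 passed the filter, 3 were at least 2-fold higher, 0 were lower and the median log2 fold change was 0.36. Slc12a7, a potassium-chloride cotransporter gene, went from 42.3, 29.8 and 28.2 normalized counts in WT to 207, 212 and 179 in Setd5 +/- (log2 fold change 2.54, 2.15 to 2.93). Slc12a2, the sodium-potassium-chloride cotransporter NKCC1, went from 562, 556 and 495 to 1200.2, 1194 and 1203 (1.16, 1.04 to 1.27).

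Of 19 genes that encode channel partners or related channels, 8 passed the filter, 2 were at least 2-fold lower, 0 were higher and the median log2 fold change was -0.42. Hcn2, a pacemaker channel gene, went from 28.2, 41.4 and 29.8 normalized counts in WT to 14.3, 7.15 and 4.76 in Setd5 +/- (log2 fold change -1.81, -2.64 to -0.98). Dpp6, whose product binds Kv4 channels, went from 351, 314 and 330.4 to 109.6, 96.5 and 122 (-1.59, -1.86 to -1.33). The largest rise in the list was that of Amigo1, which encodes a membrane protein that binds Kv channels (0.54, 0.35 to 0.73).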

How the data were processed

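RNA-seq of cortical NSCs at 21% oxygen was analysed, in 3 WT and 3 Setd5 +/- samples. Per the paper and the labels, the authors trimmed reads with Trimmomatic, aligned them to mm10 with Bowtie2 and used DESeq2; the versions, the counting tool and its strand setting are not given in the sources used here. The authors deposited normalized counts (reads divided by a size factor of each sample), most of which had lost their decimal points, and their own fold changes, errors, statistics and p-values, which were not used. All 6 columns of samples were used.

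Decimal points were placed so that each value was a whole number of reads (tolerance 0.002 reads, original values with 10 decimals); the deposited mean settled 1116 of 53110 rows, 672 rows held no values, and every restored row had the deposited mean. On simulated data 100% of 314628 values were restored, and 95.1% of counting intervals held the true fold change over 16011 genes. The simulated reads had the variance that the intervals assume, so this coverage checks the computation and not the fit to the real libraries. Genes were compared where the 6 samples averaged 10 normalized counts or more, as log2 of the ratio of the genotype means with a pseudocount of 1. Since the 3 samples of a genotype are parts of 1 library, no test was run and folds are given with 95% counting intervals, whose read variance was 1.945 times the mean, as when both ends of a pair are counted. The floor for 0 reads was 3 read pairs over a library, or 1.66 (WT) and 2.38 (Setd5 +/-) mean normalized counts. Positions, exon lengths and overlaps came from GENCODE M21, of the build the authors used, and all 92 genes matched; promoters came from RefSeq, with 67 of the 92 matched. BLAST 2.17.0 found no gene, other than overlapping ones, with 200 bases at 95% identity to a tested channel gene. Python 3.11.15, numpy, pandas and matplotlib were used.

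Genes past 2-fold and the 10 of highest mean are given per sample, others by ranges and counts. Values of some genes of these lists are not reported here. The members, lists and rules were chosen with earlier results of these data known. Alternatives were the scaling, pseudocount, filter, fold limit, each sample left out, and chromosomes 1 and 3.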

Additional observations from a re-analysis of the deposited data

How the results depend on the processing

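The 14 higher and 11 lower channel genes stayed within 1.5 times those counts under 3 other scalings, 2 other pseudocounts, no filter, a fold limit of 1.5, a required counting interval and the omission of chromosome 1. When the filter was raised to a mean of 50, 21 genes were left, of which 5 were higher and 5 lower; fewer genes were compared. A pseudocount of 5 took Kcnab3, Kcnv1, Kcnk5, Kcnc2, Kcnj9 and Kcnj4 inside 2-fold (10 higher, 9 lower), and scaling to total reads or the upper quartile took Kcnc2 there. Leaving out 1 sample of the 6 removes part of the reads of 1 library and not a replicate. The counts then ranged from 12 to 15 higher and from 9 to 11 lower. The median log2 fold change ranged from 0.05 to 0.25 (0.12 with all samples) and that of Setd5 from -0.42 to -0.34. Of 473 values of single channel genes under these settings, 472 stayed within the counting interval, and Kcnn4 left it at -4.00 without Setd5 +/- sample 1. These values share most of their reads with the main ones, so they say nothing about other cultures or clones. In alternatives chosen after seeing the data, the median was 0.27 without the channel genes between Kcnd3 and Kcnc4 on chromosome 3, and subtracting the median of each chromosome left 11 higher and 10 lower, with Kcnj10, Kcnj9, Kcnk2, Kcnc2, Kcnc1 and Kcnab3 moving inside 2-fold and Kcnq5 and Kcnt1 beyond it. No paired analysis was possible because the 3 samples of each genotype are parts of 1 library and their numbers mark no separate cultures. Depth limits genes with few reads: 14 reads for Kcnn4 and 11 for Kcnip2 in Setd5 +/-.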
